A study of Drosophila melanogaster with 12 samples.

Results

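*Gpdh1; Ldh* double mutant larvae of *Drosophila melanogaster* were compared with double-heterozygous larvae across all genes with enough counts. The comparison uses 6 of the 12 libraries of the series, 3 of double mutants and 3 of double heterozygotes, chosen by the genotype in their labels and by no measured value. The double mutants carried w[1118], the alleles [12] and [14] of *Gpdh1*, and the alleles [16] and [17] of *Ldh*, so each gene held a pair of different mutant alleles. The double heterozygotes carried w[1118] as well, with *Gpdh1* allele [12] and *Ldh* allele [16] each over a normal copy, so both groups share a white-eyed background and the controls also had 1 mutant copy of each gene. Larvae of both groups were grown at 25 °C for 60 hours, and RNA was taken from pools of whole larvae. The labels call them mid-L3 larvae, while a legend of the study calls the same samples mid-L2. The study's text gives the *Gpdh1* alleles other numbers than these labels. The labels do not say whether the replicates came from separate populations, so the p-values measure only the spread between these samples. The other 6 libraries hold a *Gpdh1* single mutant cross and enter here only where they are named.

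Lactate dehydrogenase, encoded by *Ldh*, turns pyruvate into lactate and returns NADH to NAD+ in the cytosol. Glycerol-3-phosphate dehydrogenase, encoded by *Gpdh1*, does the same by making glycerol-3-phosphate, which can feed lipid synthesis or hand its electrons to the mitochondrial enzyme Gpo1. Larvae grow by running glycolysis at a high rate, and glycolysis stops without cytosolic NAD+. Loss of both routes leaves the malate and aspartate shuttle and the respiratory chain as other known ways to use cytosolic NADH. The comparison asks which transcripts differ when both enzymes are lost together.

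Between 24275819 and 26605495 counts per library were assigned to genes. Values are given as CPM, the counts scaled to a common library total, after TMM correction, which allows for a few abundant genes taking a larger share of a library. Of 17185 gene IDs, 2900 had no count in the 6 libraries and 10650 passed the filter on low counts. The double mutant libraries lay close together, at a biological coefficient of variation of 0.0373 in the common dispersion fit. This coefficient was 0.211 in double heterozygotes and 0.115 without replicate 2 of that group. Replicate 2 was more than 2-fold below the mean of the other double heterozygotes at 360 genes and more than 2-fold above it at 68. For replicate 3 the same counts were 9 below and 257 above. Replicate 2 was singled out beforehand because it stands apart in cuticle genes. Calls that end without it, and values that move by more than 1.5 times, are given both ways. All libraries hold whole larvae, so fewer cells of a type and less RNA per cell cannot be told apart in any result below. The study reports that these double mutants arrest in development, so larvae of the same age may differ in stage. A difference of stage and other effects of the genotype cannot be told apart here either.

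Both mutated genes were strongly reduced. *Ldh* had 4.13, 3.76 and 4.45 CPM in double mutants, against 466, 458 and 480 CPM in double heterozygotes (log2 fold change -6.83 ± 0.085 standard error, adjusted p = 6.5e-07). *Gpdh1* had 64.6, 64.3 and 63.7 CPM in double mutants, against 520, 464 and 532 CPM in double heterozygotes (log2 fold change -2.98 ± 0.067 standard error, adjusted p = 2.4e-06). The groups did not overlap at either gene, and both genes differed in the direction the labels give. The *Gpdh1* mutants of the other cross carry the same *Gpdh1* alleles by label. As CPM without TMM correction they had 237, 291 and 284 CPM of *Gpdh1*, against 67.9, 68.4 and 67.4 CPM in double mutants. This difference between the crosses was not tested. *Gpdh1* exons overlap lncRNA:CR44986 on the other strand, and the strand setting of the counts is not given in the sources used here, so reads of the pair cannot be told apart. The same limit holds for other genes named below whose exons overlap a gene on the other strand: *Got2*, *Gpdh3*, *Pglym78*, *Pgk*, *Pfrx*, *Eno*, *Ald1*, *Treh*, *Mal-A1*, *Mal-A8*, *Cyp6g1*, *GstE1*, *Lsd-1*, *Mtpalpha*, *Mcad*, *apolpp*, *ref(2)P*, *tobi*, *Zw*, *Pgd*, *Myc*, *Hr38*, *Gbp2*, *spz*, *Smox*, *wit*, *Pxn*, *PH4alphaSG2*, *sad*, *mld*, *dib*, *Hr4*, *Cht9* and lncRNA:roX1. *sug*, *ftz-f1*, *Gpdh3*, *Pfrx*, *Myc* and *Pxn* also overlap a gene on their own strand.

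In all, 731 genes, 6.86% of those tested, were called higher in double mutants, past a log2 fold change of 1 and with an adjusted p under 0.05. Another 380 genes, 3.57%, were called lower, with a log2 fold change below -1. Without double heterozygote replicate 2 the counts were 850 (7.88% of 10780 tested) and 632 (5.86%). With no fold limit, 28.9% passed as higher and 28.7% as lower without it. Of the genes called with all libraries, 711 were also called higher and 360 also called lower without that library. Large increases outnumbered large decreases: 219 genes rose and 67 fell by more than 2 log2 units. With no fold limit, 2690 genes (25.3%) passed as higher and 2757 (25.9%) as lower, and these shares are the background against which the gene lists below are read. The median log2 fold change over all genes tested was -0.03. When the very similar double mutant libraries were summed into 1, so that the spread came from the double heterozygotes alone, 527 genes (4.83% of 10917) were called higher and 176 (1.61%) lower. With no fold limit, this setting left 947 genes (8.67%) higher and 608 (5.57%) lower, against which list counts from this setting are read. By chromosome arm, with no test, 8.28% of tested genes were called on the X, between 10.6% and 11.4% on the 4 large autosomal arms and 2.27% of 88 genes on chromosome 4.

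The largest changes are described for genes called with and without double heterozygote replicate 2, with groups that did not overlap and 10 CPM or more as the mean of the higher one. The most decreased of these was *Alp7*, an alkaline phosphatase gene, which was all but absent from double mutants. It had 1, 1 and 0 counts in double mutants, against 4043, 2846 and 4111 counts in double heterozygotes, a summed ratio of 0.000175 (95% exact interval 2.12e-05 to 0.000631, counting error only). Its neighbour *Alp8*, whose start lies 4.77 kb away on chromosome 2R, had 1.09, 0.7 and 0.747 CPM in double mutants, against 57.8, 62.9 and 64.4 CPM in double heterozygotes (log2 fold change -6.18, adjusted p = 2.5e-06). Both genes were low in every double mutant library and high in every double heterozygote library, replicate 2 included. The other members of the family went both ways. Of 11 alkaline phosphatase genes tested, 7 rose and 4 fell. *Alp9* had 185, 187 and 191 CPM in double mutants, against 30.3, 35.8 and 24.3 CPM in double heterozygotes, and *Alp10* had 227, 225 and 225 CPM, against 42.3, 52 and 39.3 CPM. *Alp1* fell with *Alp7*, *Alp8* and *Alp11*.

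Members of the ecdysteroid kinase-like family also stood among the largest decreases. *CG11892* had 6.41, 4.35 and 5.23 CPM in double mutants, against 190, 190 and 200 CPM in double heterozygotes, a log2 fold change of -5.18 (adjusted p = 3.6e-06). *CG10514*, which starts 3.12 kb from it on chromosome 3R, had 3.94, 3.13 and 3.27 CPM, against 147, 110 and 111 CPM (log2 fold change -5.15, adjusted p = 5.4e-06). As with the phosphatases, no double heterozygote library came near the double mutant values. Further decreases past 4.5 log2 units, among *CG13135*, *CG13360*, asRNA:CR45600, *CG14852* and *CG10073*, ranged between -5.19 and -4.56. Of these, *CG13360*, asRNA:CR45600 and *CG14852* overlap genes on the other strand. The remaining members of the 12 largest decreases were the larval serum protein genes described below.

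Among the 12 largest increases, *CG10814* changed most. It had 97.6, 95.1 and 104 CPM in double mutants, against 0.91, 1.19 and 1.08 CPM in double heterozygotes (log2 fold change 6.53 ± 0.098 standard error, adjusted p = 7.4e-07). *Bace*, an aspartyl protease gene, had 147, 154 and 152 CPM in double mutants, against 1.52, 10.6 and 3.7 CPM in double heterozygotes (log2 fold change 4.83, adjusted p = 0.00115, and 5.89 without replicate 2). Replicate 2 was the highest of the double heterozygotes at *Bace* and still far below the double mutants. *CG10182* showed the same order, with 196, 194 and 195 CPM in double mutants, against 3.68, 11.1 and 4.79 CPM in double heterozygotes (log2 fold change 4.90, and 5.55 without replicate 2). *CG14569*, *CG14568*, *CG14573* and *CG14564* lie within 26.4 kb between starts on chromosome 3L and rose by 4.87, 4.75, 4.94 and 4.68 log2 units. Without double heterozygote replicate 2 the value of *CG14569* was 5.58. A call without double heterozygote replicate 2 was a condition for a place among the 12 largest increases and the 12 largest decreases. It is therefore no added support for them.

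**Figure D1:**
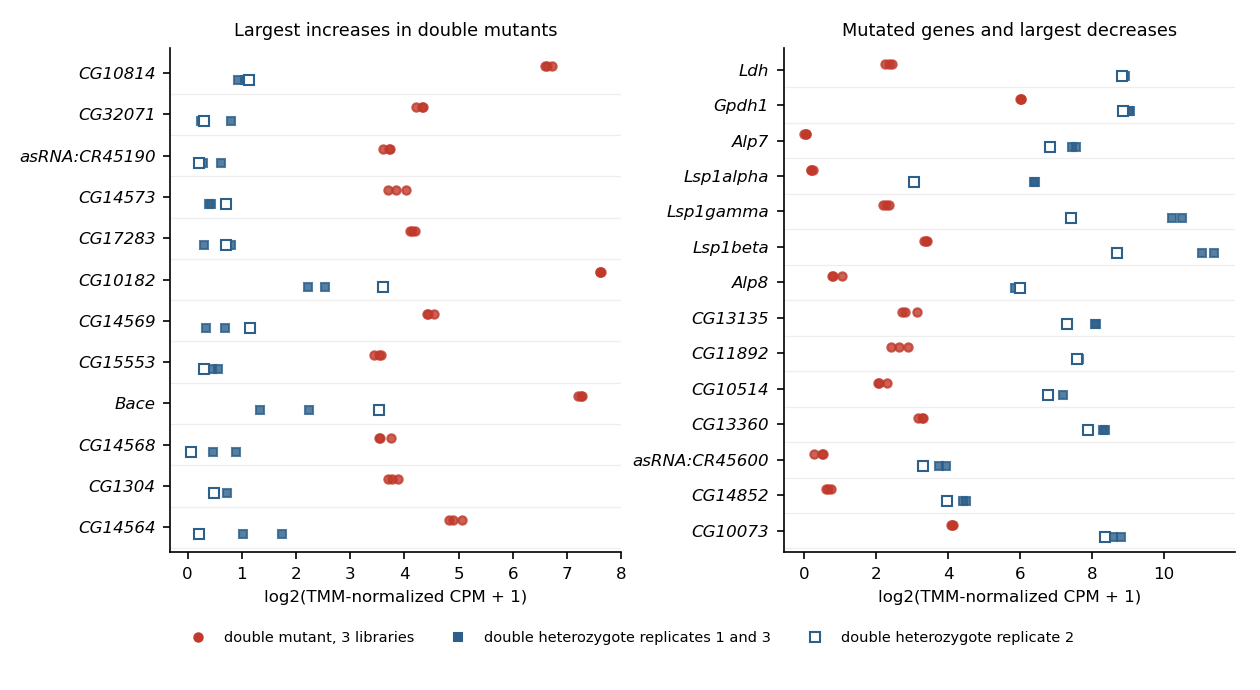
Each row is 1 gene, with log2(TMM-normalized CPM + 1) on the horizontal axis. Red circles are the 3 double mutant libraries and blue squares the double heterozygote libraries, with replicate 2 open. The 12 largest increases are on the left, and *Ldh*, *Gpdh1* and the 12 largest decreases are on the right. The groups do not overlap in any row, which was a condition of choice for all genes but *Ldh* and *Gpdh1*. Replicate 2 lies well left of the other blue squares at *Lsp1alpha*, *Lsp1beta* and *Lsp1gamma*.

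The same 24 genes were read in the *Gpdh1* cross, whose larvae have working *Ldh*, as CPM without TMM correction and with no test. Of the 12 largest increases, 5 were above all *Gpdh1* heterozygotes in all *Gpdh1* mutants, 4 were below and 3 overlapped. Of the 12 largest decreases, 9 were below, 1 was above and 2 overlapped. The share of all genes without overlap was not computed for that cross. In the double mutant comparison it was 62.2% of the genes tested, so these counts are not read as a result. *CG10814* was higher still in that cross, with 103, 101 and 110 CPM in double mutants and 397, 282 and 332 CPM in *Gpdh1* mutants, against 0.847, 1.18 and 0.989 CPM in double heterozygotes and 2.33, 4.12 and 3.03 CPM in *Gpdh1* heterozygotes. *Lsp1gamma* was low in both mutants, at 4.38, 4.12 and 3.76 CPM in double mutants and 8.44, 20 and 18.2 CPM in *Gpdh1* mutants, against 1127, 171 and 1326 CPM in double heterozygotes and 3092, 1221 and 1353 CPM in *Gpdh1* heterozygotes. Other genes were extreme in the double mutants alone among the libraries of the series. These hold no *Ldh* single mutant, so loss of *Ldh* alone and loss of both enzymes cannot be told apart. Against the double heterozygotes, only the double mutants carried the chromosomes with *Gpdh1* allele [14] and *Ldh* allele [17]. Other variants on those chromosomes and the mutations themselves cannot be told apart either. *CG11892* had 6.74, 4.63 and 5.53 CPM in double mutants on this scale, while it had 263, 232 and 199 CPM in *Gpdh1* mutants, 177, 189 and 183 CPM in double heterozygotes and 302, 281 and 250 CPM in *Gpdh1* heterozygotes. Only the double mutants were low. *CG32071* was the counterpart among the increases, at 20.1, 20.5 and 18.5 CPM in double mutants, against at most 0.686 CPM in any of the other 9 libraries. *CG14564* followed another pattern, with 30.4, 29.1 and 34.2 CPM in double mutants and 12.1, 8.84 and 15.5 CPM in *Gpdh1* mutants, against 0.968, 0.158 and 2.14 CPM in double heterozygotes and 60.8, 212 and 110 CPM in *Gpdh1* heterozygotes. At this gene the double heterozygotes were the lowest of all libraries, so its increase is measured against a control level that the other control group did not share. The same held at its neighbours *CG14568* and *CG14573*, with 22, 74.3 and 36 CPM and 21.4, 98.6 and 44.4 CPM in *Gpdh1* heterozygotes. *CG14569* had 9.61, 81.9 and 26.3 CPM in *Gpdh1* heterozygotes, and there the double heterozygotes overlapped the *Gpdh1* mutants.

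Genes next to the mutated loci were looked at separately. Of the 10 tested genes nearest to *Ldh*, 5 on each side, 4 passed. *CG10163* had 0.975, 0.516 and 0.605 CPM in double mutants, against 0.0867, 0.119 and 0.0452 CPM in double heterozygotes (log2 fold change 2.96, adjusted p = 0.00243), and *CG10226* fell by 0.66 on the log2 scale (adjusted p = 0.00175). Around *Gpdh1*, 6 of 10 passed. Over all genes tested, 25.3% passed as higher and 25.9% as lower, so both counts lay near the background. *CG9021* had 12.7, 11.7 and 12.5 CPM in double mutants, against 0.26, 1.07 and 0.452 CPM in double heterozygotes (log2 fold change 4.33, adjusted p = 0.00013, and 5.12 without replicate 2), and *CG11034* rose by 1.05 log2 units (adjusted p = 1.8e-05).

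Genes of the remaining NADH routes changed little and in both directions. Of 8 tested genes of the shuttles, 3 rose and 4 fell, and none was called with the fold limit. The largest increase was at *Gpo1*, the mitochondrial enzyme that oxidizes glycerol-3-phosphate. It had 595, 596 and 628 CPM in double mutants, against 290, 385 and 305 CPM in double heterozygotes (log2 fold change 0.89 ± 0.11 standard error, adjusted p = 0.000874). All double mutant values lay above all control values, and the fold change was 1.05 without double heterozygote replicate 2. *Men*, a malic enzyme, rose by 0.40 log2 units and *Got1*, the cytosolic aspartate aminotransferase, by 0.17. The malate dehydrogenases of cytosol and mitochondrion, *Mdh1* and *Mdh2*, fell by 0.43 and 0.41 log2 units, and *Got2* fell by 0.65. *Gpdh3*, a paralogue of *Gpdh1*, had 6.83, 7.26 and 7.75 CPM in double mutants and 6.98, 7.29 and 6.23 CPM in double heterozygotes, which overlap (log2 fold change 0.09, adjusted p = 0.44).

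Glycolysis genes differed by small amounts, apart from *Hex-C*. Of 14 tested, 2 rose and 6 fell, and *Hex-C*, a hexokinase, was the only member called. It had 15, 13.6 and 13.4 CPM in double mutants, against 64.8, 58.7 and 69.4 CPM in double heterozygotes (log2 fold change -2.20 ± 0.082 standard error, adjusted p = 9.2e-06). *Hex-A*, by contrast, had 182, 185 and 165 CPM in double mutants and 169, 152 and 192 CPM in double heterozygotes, with a log2 fold change of 0.05 (adjusted p = 0.671). *Pglym78* and *Pgk*, which act in the lower part of the pathway, fell by 0.52 and 0.43 log2 units. *Pfrx*, which makes the activator of phosphofructokinase, rose by 0.40. *Eno*, *PyK*, *Ald1*, *Tpi* and *Gapdh1* did not pass, with log2 fold changes between -0.14 and 0.15. Without double heterozygote replicate 2, 4 glycolysis genes passed as higher and 7 as lower, the added ones being *Eno* and *PyK* at 0.18 and 0.17 and *Ald1* at -0.18.

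Side branches of glycolysis leaned downwards. In the pentose phosphate pathway, which makes NADPH and ribose, 5 of 7 tested genes fell and none rose. *Pgls* had 37.6, 39.2 and 38.6 CPM in double mutants, against 52.7, 56.2 and 58.9 CPM in double heterozygotes (log2 fold change -0.54, adjusted p = 0.000391), whereas *Zw* and *Pgd*, its oxidative dehydrogenases, did not pass. Of 10 genes of trehalose and glycogen metabolism, 2 rose and 6 fell. Trehalase, encoded by *Treh*, splits the blood sugar trehalose and had 253, 250 and 261 CPM in double mutants, against 153, 132 and 153 CPM in double heterozygotes (log2 fold change 0.80, adjusted p = 0.000221). Glycogen phosphorylase, *Glyp*, rose by 0.37 log2 units, and glycogen synthase, *Glys*, fell by 0.47. Around pyruvate, *Pdk*, the kinase that inhibits pyruvate dehydrogenase, rose by 0.73 log2 units, and *fbp*, the gluconeogenic fructose bisphosphatase, fell by 0.61, among 8 genes of which 2 rose and 4 fell. Of 13 sugar and amino acid transporters, 6 rose and 7 fell, and of 9 hypoxia pathway genes 2 rose and 2 fell, or 1 and 2 without double heterozygote replicate 2.

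Mitochondrial energy genes fell together by small amounts. Of 16 tested genes of the TCA cycle, 15 fell, with a list median of -0.33. Of 69 nuclear genes of the respiratory chain, 63 fell and none rose, with a median of -0.36, against -0.03 over all genes tested. Cytochrome c, *Cyt-c-p*, had 465, 460 and 448 CPM in double mutants, against 752, 792 and 752 CPM in double heterozygotes (log2 fold change -0.74 ± 0.045 standard error, adjusted p = 5.1e-05). *ATPsynC*, a subunit of the ATP synthase ring, had 2666, 2700 and 2692 CPM in double mutants, against 3912, 3796 and 4028 CPM in double heterozygotes (log2 fold change -0.54, adjusted p = 0.000191). The isocitrate dehydrogenase *Idh* had the largest decrease of the TCA list, at -0.65. None of the genes of these lists was called with the fold limit. With the double mutant libraries summed, 15 respiratory chain genes and 2 TCA cycle genes passed as lower. *Hsp60A*, a mitochondrial chaperone, fell by 0.62 log2 units.

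Muscle, which is rich in mitochondria, moved in the same direction. All 14 muscle markers were tested, 10 fell and none rose, or 12 and none without double heterozygote replicate 2. That library was the lowest double heterozygote at 13 of the 14. Their summed level was between 52073 and 53582 CPM in double mutants, against 63998 to 71820 CPM in double heterozygotes. *Mhc*, the muscle myosin heavy chain, had 8082, 7828 and 8253 CPM in double mutants, against 10898, 10671 and 11571 CPM in double heterozygotes (log2 fold change -0.46, adjusted p = 0.00092). The part of muscle content in the decrease of the respiratory chain genes was not tested.

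**Figure D2:**
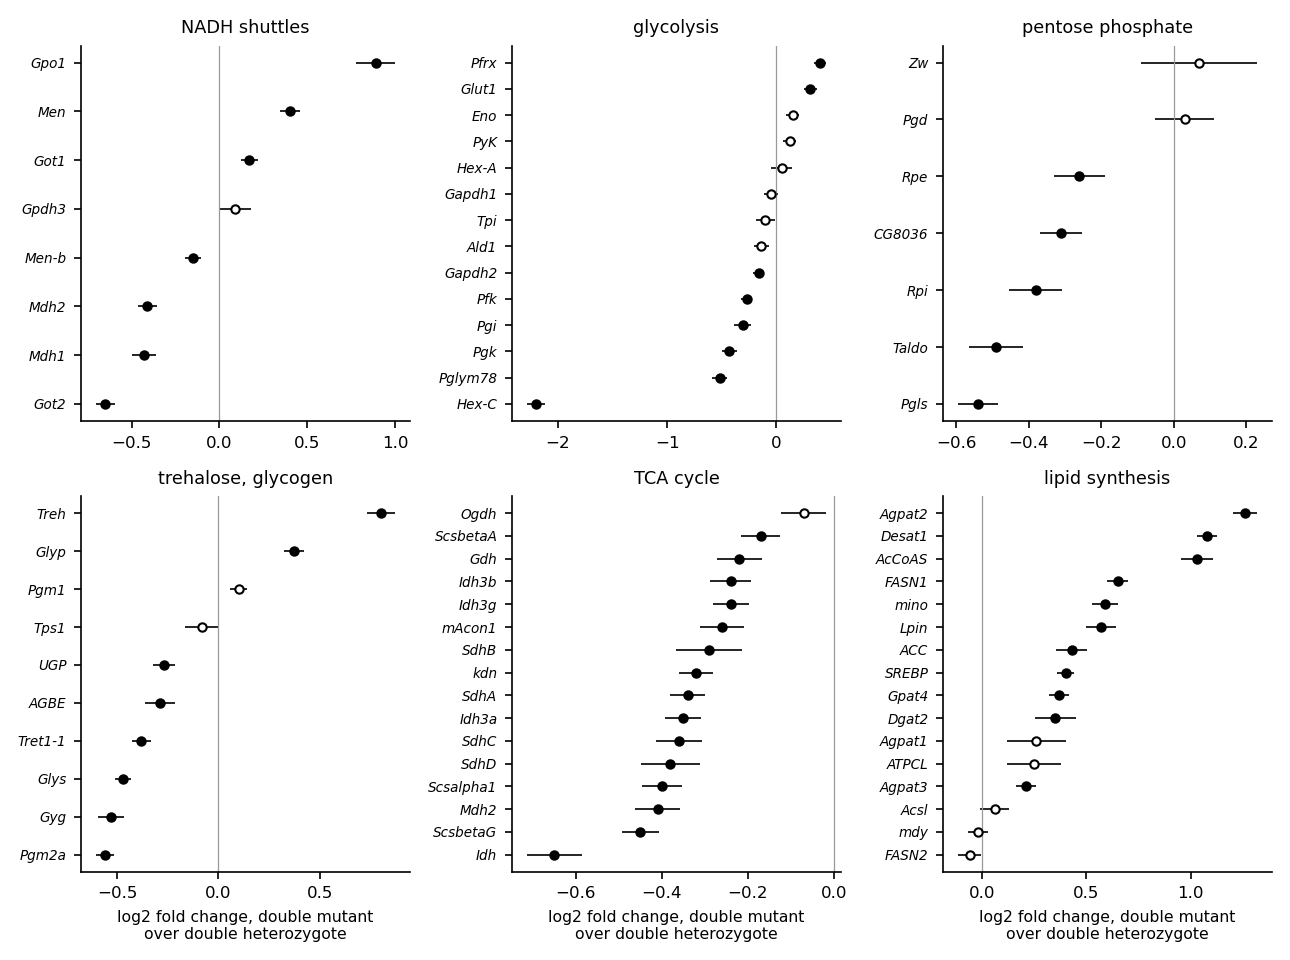
Points are log2 fold changes of single genes, double mutant over double heterozygote, with bars of 1 standard error, in 6 pathways. Filled points passed at an adjusted p under 0.05 and open points did not. *Gpo1* and *Treh* stand at the top of their panels, *Hex-C* stands apart at -2.20, every TCA cycle point lies left of 0, and most lipid synthesis points lie right of it.

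Genes for digesting food rose. Of 14 tested maltase, amylase and related genes, 11 rose and 1 fell, with a list median of 1.06, or 11 and 3 without double heterozygote replicate 2. Maltases release glucose from oligosaccharides in the gut. *Mal-A1* had 946, 951 and 975 CPM in double mutants, against 129, 141 and 117 CPM in double heterozygotes (log2 fold change 2.89 ± 0.078 standard error, adjusted p = 3.5e-06). *Mal-A7* had 24.5, 25.3 and 25.6 CPM in double mutants, against 1.13, 1.39 and 0.903 CPM in double heterozygotes (log2 fold change 4.45, adjusted p = 3.6e-06). *Mal-A6* and *Mal-A8* rose by 2.49 and 2.48 log2 units. The gene that fell with all libraries was *tobi*, a glucosidase gene whose expression depends on insulin and glucagon-like signals, with 1.09, 1.95 and 1.74 CPM in double mutants, against 28.8, 19.4 and 28.4 CPM in double heterozygotes (log2 fold change -3.99, adjusted p = 5.7e-05). Without replicate 2, *Mal-B1* and *Amyrel* passed as lower too, at -0.85 and -0.19, while with all libraries they were at -0.60 and 0.10. Reads of near-identical copies, such as *Amy-p* and *Amy-d*, may be split between them or left uncounted.

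Among 26 gut protease genes, 20 rose and 1 fell. *alphaTry* had 230, 230 and 240 CPM in double mutants, against 35.6, 42.2 and 36 CPM in double heterozygotes (log2 fold change 2.62, adjusted p = 4.3e-06), and *betaTry* had 897, 895 and 975 CPM, against 194, 240 and 215 CPM (log2 fold change 2.09, adjusted p = 1.4e-05). The intestinal lipase *mag* had 141, 142 and 141 CPM in double mutants, against 26.2, 17.6 and 29.9 CPM in double heterozygotes (log2 fold change 2.52, adjusted p = 0.000114). Midgut markers that are not digestive enzymes rose as well. Of 8 tested, 6 rose, none fell, and their summed level was 510 to 516 CPM in double mutants, against 259 to 278 CPM in double heterozygotes. *mex1* rose by 1.79, *nub* by 1.81 and *GATAe*, a gut transcription factor, by 0.98 log2 units. The part of gut content in the increase of the digestive genes was not tested. In the fit with summed double mutants, 9 carbohydrate digestion genes and 17 gut proteases passed as higher.

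Detoxification families rose in larger numbers than they fell. Of 69 tested cytochrome P450 genes, 43 rose and 10 fell, with a median of 0.70, and 21 were called higher with the fold limit. *Cyp6a8* had 146, 145 and 143 CPM in double mutants, against 21.3, 18.4 and 17.8 CPM in double heterozygotes (log2 fold change 2.92, adjusted p = 3.5e-06). *Cyp6g1*, known for its part in insecticide resistance, rose by 2.59 log2 units, although its exons overlap those of *Cyp6g2*. Of 31 UDP-glycosyltransferases, which attach sugars to small molecules, 21 rose and 5 fell. *Ugt37A2* had 106, 104 and 109 CPM in double mutants, against 13.4, 12.2 and 15.9 CPM in double heterozygotes (log2 fold change 2.94, adjusted p = 7.2e-06). Of 34 glutathione S-transferases, 17 rose and 5 fell, among them *GstE1*, with 814, 863 and 822 CPM in double mutants, against 229, 212 and 270 CPM in double heterozygotes (log2 fold change 1.81). These families hold close copies between which reads may be split.

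In the oxidative defence list, 8 of 18 tested genes rose and 4 fell. *Gclc*, the catalytic subunit of glutamate-cysteine ligase, had 111, 110 and 108 CPM in double mutants, against 40.8, 35.6 and 42 CPM in double heterozygotes, a log2 fold change of 1.48 (adjusted p = 2.2e-05). Its partner *Gclm* rose by 0.46. The superoxide dismutase *Sod2* and the peroxiredoxin *Prx3* fell by 0.59 and 0.49. In the list of ATF4 and one-carbon genes, 9 of 22 rose and 5 fell. *aay*, the phosphatase that completes serine synthesis, had 98.7, 97.2 and 102 CPM in double mutants, against 46.9, 44.5 and 49.8 CPM in double heterozygotes (log2 fold change 1.08, adjusted p = 2.9e-05). Of 10 heat shock genes tested, 5 fell and none rose.

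Genes of lipid synthesis rose. Of 16 lipid synthesis genes, 11 rose and none fell. *Desat1*, a fatty acid desaturase, had 1457, 1441 and 1447 CPM in double mutants, against 709, 655 and 691 CPM in double heterozygotes (log2 fold change 1.08, adjusted p = 1.6e-05). *Agpat2*, which acts after glycerol-3-phosphate in glycerolipid assembly, had 77.8, 75 and 81.1 CPM, against 32.2, 31 and 34.4 CPM (log2 fold change 1.26, adjusted p = 1.8e-05). *FASN1*, a fatty acid synthase, rose by 0.65. With the double mutant libraries summed, 5 lipid synthesis genes passed. Among single genes of lipid turnover, the perilipin *Lsd-1*, which coats lipid droplets, had 120, 126 and 134 CPM in double mutants, against 245, 230 and 247 CPM in double heterozygotes (log2 fold change -0.93, adjusted p = 6.4e-05). In the list of lipid breakdown genes, 6 of 17 rose and 8 fell, with the lipase *bmm* at 0.95 and the beta-oxidation genes *Mtpalpha* and *Mcad* at -0.53 and -0.60. The main hemolymph lipoprotein, *apolpp*, fell by 0.70 log2 units and the lipid transfer protein *Mtp* by 0.79, among 6 lipoprotein genes of which 1 rose and 2 fell.

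Starvation and autophagy genes moved upwards in number. *Thor*, the fly 4E-BP that restrains translation, had 305, 327 and 328 CPM in double mutants, against 58.6, 62.7 and 55 CPM in double heterozygotes (log2 fold change 2.44 ± 0.068 standard error, adjusted p = 3.6e-06). *InR*, the insulin receptor, had 51.7, 47.7 and 44.5 CPM, against 21.9, 25.9 and 21.8 CPM (log2 fold change 1.05, adjusted p = 0.000218). *REPTOR* and *REPTOR-BP*, transcription factors held back by TORC1, rose by 1.13 and 1.54 log2 units. In the starvation list, 8 of 13 genes rose and 1 fell, and of 21 autophagy genes 11 rose and none fell. *ref(2)P*, the autophagy adaptor, rose by 1.14 log2 units (adjusted p = 2.9e-05). *Atg8a* rose by 0.99. *foxo* itself had 63.1, 56.9 and 52.8 CPM in double mutants and 50.8, 49.4 and 54.5 CPM in double heterozygotes, which overlap (log2 fold change 0.16, adjusted p = 0.13).

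The insulin-like peptides split. *Ilp5* had 1.09, 0.995 and 0.889 CPM in double mutants, against 3.81, 3.13 and 3.97 CPM in double heterozygotes (log2 fold change -1.87, adjusted p = 0.000163). *Ilp3* had 1.73, 1.14 and 0.96 CPM, against 0.0867, 0.317 and 0.0452 CPM (log2 fold change 2.99, adjusted p = 0.00404, and 4.18 without double heterozygote replicate 2). *Ilp2* fell by 0.33, *Ilp6*, the fat body member, rose by 0.87, and *ImpL2*, a secreted binder of these peptides, fell by 0.63 log2 units. In the insulin list as a whole, 6 of 15 rose and 3 fell. Among 15 metabolic transcription factors, 7 rose and 2 fell. The sugar-responsive *sug* rose by 0.97 and *cbt* by 0.83 log2 units, *Myc* rose by 0.45, and *Hr38*, an orphan nuclear receptor, fell by 1.54.

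Secreted regulators went both ways. Of 20 tested, 7 rose and 4 fell, with a list median of 0.10. Over all genes tested, 25.3% passed as higher and 25.9% as lower, so these counts are not read as a result about the list. *daw*, an activin-like ligand, had 32.3, 31.9 and 33.3 CPM in double mutants, against 18.2, 16.6 and 11.1 CPM in double heterozygotes (log2 fold change 1.08, adjusted p = 0.00239), and *Actbeta* rose by 0.60. *CCHa1*, a gut and brain peptide, had 2.36, 2.87 and 2.53 CPM, against 1.04, 1.23 and 0.677 CPM (log2 fold change 1.38, adjusted p = 0.0023), and *Akh*, the fly counterpart of glucagon, rose by 0.61. The growth-blocking peptide genes *Gbp2* and *Gbp3* fell by 0.57 and 0.43, and *spz*, the Toll ligand, fell by 0.79. From summed double mutant libraries, none of the 20 passed as higher and 1 as lower. Of 9 receptors and Smads of the TGF-beta pathway, 5 rose and none fell, with the type II receptor *wit* at 0.59 and *Smox* at 0.45. In the JAK/STAT list, 5 of 13 tested genes rose and 2 fell. *Socs36E*, a feedback inhibitor of the pathway, had 39.3, 39.8 and 40.4 CPM in double mutants, against 21.7, 20.9 and 22.5 CPM in double heterozygotes (log2 fold change 0.88, adjusted p = 3.5e-05).

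Neuropeptide and neuronal transcripts took a larger share of the counts. Of 17 peptide genes of gut and brain, 12 rose and none fell. *Dh31* had 15.4, 16 and 14.8 CPM in double mutants, against 6.93, 7.02 and 6.5 CPM in double heterozygotes (log2 fold change 1.17, adjusted p = 3.5e-05), and *Mip* rose by 0.97. *sNPF* rose by 1.14 and by 0.97 without double heterozygote replicate 2. Of 12 neuronal markers, 9 rose and none fell, with summed levels of 351 to 402 CPM in double mutants, against 294 to 313 CPM in double heterozygotes. *nSyb*, a synaptic vesicle protein, rose by 0.45 log2 units. Glial markers had 3 of 6 higher and neuroblast markers 2 of 7. The part of nervous tissue content in the rise of the peptides was not tested.

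**Figure D3:**
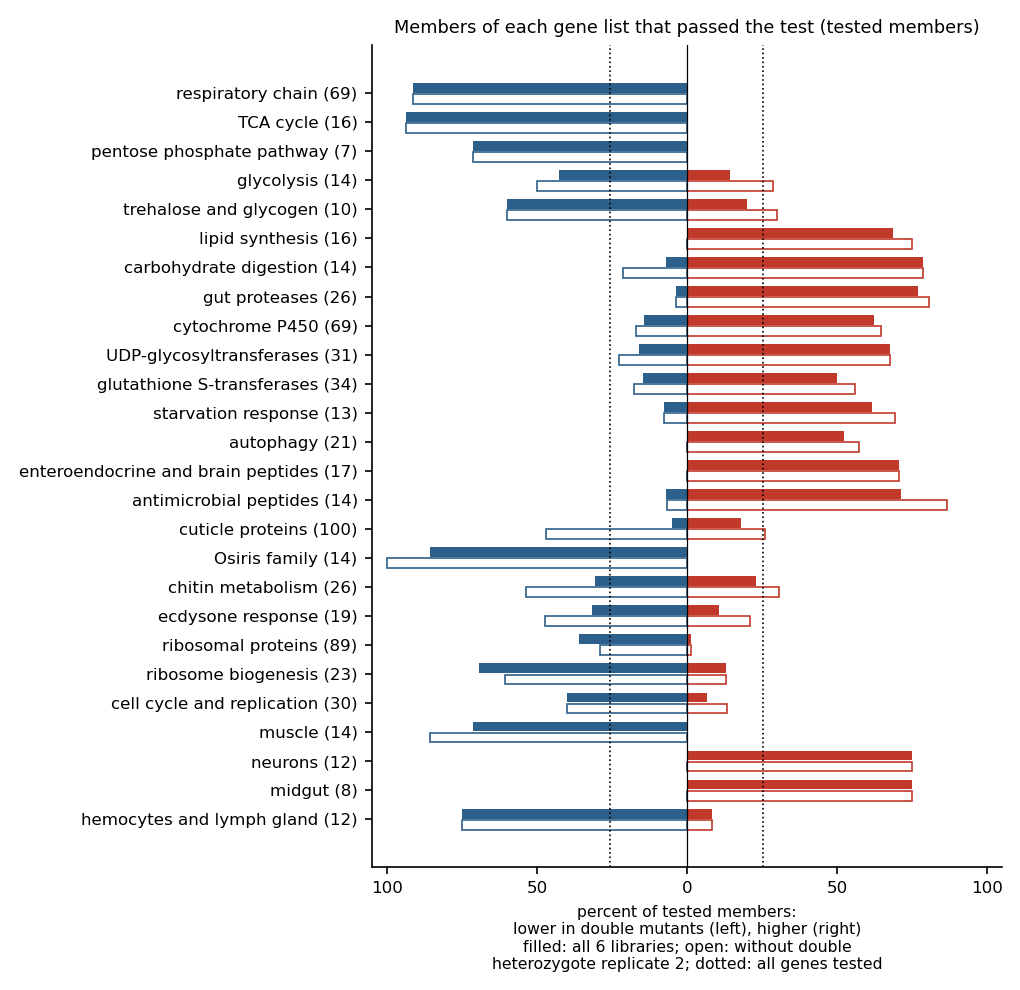
Bars give the percent of tested members of each gene list that passed at an adjusted p under 0.05 with no fold limit, lower in double mutants to the left and higher to the right. Filled bars use all 6 libraries and open bars leave out double heterozygote replicate 2, tested members are in brackets, and dotted lines mark 25.9% lower and 25.3% higher over all genes tested. Filled and open bars differ most at the cuticle proteins, where 5 of 100 members were lower with all libraries and 47 without replicate 2.

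Hemocyte genes fell. Of 12 markers of blood cells and lymph gland, 9 fell and 1 rose. *Hml*, hemolectin, had 45.9, 46.4 and 44.7 CPM in double mutants, against 83.7, 91.4 and 97.3 CPM in double heterozygotes (log2 fold change -0.99, adjusted p = 6.6e-05). *Pxn*, peroxidasin, fell by 0.72, and the collagen IV genes *Col4a1* and *vkg* by 0.48 and 0.47, though collagen is also made by the fat body. Fat body markers had 5 of 7 lower and 1 higher, salivary gland markers 3 of 5 lower, tracheal markers 4 of 8 lower, Malpighian tubule markers 4 of 8 higher and imaginal disc markers 4 of 11 higher and 1 lower. Prothoracic gland markers had 2 of 8 lower and 1 higher, and germ line markers 2 of 5 lower. Without double heterozygote replicate 2, fat body markers had 2 of 8 higher and 5 lower, glial markers 4 of 6 higher and 1 lower, and Malpighian tubule markers 4 of 8 higher and 1 lower. The dosage compensation RNA lncRNA:roX1, which is made in males, rose by 0.38 log2 units (adjusted p = 0.00972). lncRNA:roX2 did not pass, and the sex of the larvae is not given in the labels. In the salivary gland list, the prolyl hydroxylase *PH4alphaSG2* had 5.78, 6.67 and 7.51 CPM in double mutants, against 35.6, 22.1 and 28.2 CPM in double heterozygotes (log2 fold change -2.10, adjusted p = 0.00026).

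Without double heterozygote replicate 2, the share of ribosomal protein genes that fell lay near the background, while almost none rose. Of 89 tested, 32 fell and 1 rose, with a median of -0.13. Without double heterozygote replicate 2, 26 of the 89 passed as lower, with a median of -0.08, against 28.7% lower over all genes in that setting. Only 1 of the 89 passed as higher there, against 28.9% over all genes. Of 23 ribosome biogenesis genes, 16 fell and 3 rose, or 14 lower and 3 higher without that library. *Non1* was the exception with the fold limit, with 422, 427 and 425 CPM in double mutants, against 198, 229 and 189 CPM in double heterozygotes (log2 fold change 1.05, adjusted p = 0.000107). Of 30 cell cycle and replication genes, 12 fell and 2 rose, or 12 and 4 without that library. *Cdc6*, which loads the replicative helicase, had 6.08, 7.3 and 6.72 CPM in double mutants, against 11.3, 11 and 10.4 CPM in double heterozygotes (log2 fold change -0.70, adjusted p = 0.000914). *stg*, the Cdc25 phosphatase, fell by 0.75 and *polo* by 0.50 log2 units. Double heterozygote replicate 2 was the highest of its group at 63 of the 89 ribosomal protein genes. With the double mutant libraries summed, no ribosomal protein gene passed as lower.

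Larval serum protein genes, which encode storage hexamerins that the fat body secretes in the third instar, were almost silent in double mutants. *Lsp1gamma* had 4.16, 3.87 and 3.56 CPM in double mutants, against 1211, 172 and 1454 CPM in double heterozygotes (log2 fold change -7.93 ± 0.92 standard error, adjusted p = 0.000676). *Lsp1beta* had 9.45, 9.65 and 9.03 CPM, against 2158, 414 and 2714 CPM (log2 fold change -7.55, standard error 0.80). *Lsp1alpha* had 4, 5 and 4 counts in double mutants, against 1951, 183 and 1822 counts in double heterozygotes, a summed ratio of 0.00316 (95% exact interval 0.00168 to 0.00541, counting error only). At each of the 3 genes, double heterozygote replicate 2 lay far below its group and far above the double mutants. Without it the log2 fold changes of the beta and gamma genes were -8.00 and -8.41. Under summing of the double mutants, none of the 3 genes passed (adjusted p between 0.0584 and 0.0874).

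Genes of the late larval programme did not all follow. *Fbp1*, the fat body receptor that takes up these storage proteins, had 323 counts over the double mutants, against 4 counts over the double heterozygotes, a ratio of 77.6 (95% exact interval 30 to 287). Salivary new glue genes rose, with *ng3* at 147, 155 and 153 CPM in double mutants, against 16.3, 19.5 and 17.4 CPM in double heterozygotes (log2 fold change 3.10, adjusted p = 3e-06). *ng1* and *ng2* rose by 1.71 and 1.56 log2 units. The classical glue genes *Sgs1*, *Sgs3*, *Sgs5*, *Sgs7* and *Sgs8* did not pass the filter on low counts with all 6 libraries. Of 4 glue genes tested 3 rose, and without double heterozygote replicate 2 it was 3 of 5 higher and 1 lower.

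Ecdysone genes gave a mixed picture. Of 16 tested genes of ecdysone synthesis and turnover, 3 rose and 2 fell, or 3 and 4 without double heterozygote replicate 2. *shd*, which makes the active hormone from ecdysone in peripheral tissue, had 25.7, 25.4 and 24.7 CPM in double mutants, against 8.11, 13.9 and 8.81 CPM in double heterozygotes (log2 fold change 1.29, adjusted p = 0.00212). *sad*, which acts in the prothoracic gland, fell by 0.56, the regulator *mld* fell by 0.66, and *spok* rose by 0.26. *phtm* and *dib*, which encode hydroxylases of the same gland, did not pass. Of 19 response genes, 2 rose and 6 fell, or 4 and 9 without that library. The nuclear receptor gene *Hr4* had 38.8, 36.5 and 37 CPM in double mutants, against 80.4, 73.3 and 72.6 CPM in double heterozygotes (log2 fold change -1.01, adjusted p = 3.8e-05), and *ImpL1* had 430, 438 and 421 CPM, against 1253, 741 and 952 CPM (log2 fold change -1.19, adjusted p = 0.00201). *EcR* itself had 30.4, 32.8 and 27.2 CPM in double mutants and 31.5, 28.2 and 33.2 CPM in double heterozygotes, with overlapping groups.

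Several moult genes varied more among the double heterozygotes than between the groups. *ftz-f1*, a receptor gene switched on as the hormone declines, had 44, 40.8 and 36.9 CPM in double mutants and 85.3, 14.3 and 133 CPM in double heterozygotes, so the double mutants lay between replicate 2 and the other controls (log2 fold change -0.94, adjusted p = 0.288, and -1.41 with an adjusted p of 0.000291 without replicate 2). *Cyp18a1*, which inactivates ecdysone, had 26.7, 25.5 and 28.2 CPM in double mutants and 24, 9.55 and 49.2 CPM in double heterozygotes. *Eip74EF* had 18, 18.2 and 16.4 CPM in double mutants and 21.6, 6.06 and 44.6 CPM in double heterozygotes, and passed without replicate 2 at -0.89 (adjusted p = 0.02). At all 3 genes replicate 2 was the lowest and replicate 3 the highest double heterozygote.

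The same library decided what could be said of the cuticle. It was singled out by its values at cuticle genes, so its place there and the calls without it are descriptive only. Of 100 tested cuticle protein genes, 18 rose and 5 fell with all libraries, whereas 26 rose and 47 fell without double heterozygote replicate 2. Double heterozygote replicates 1 and 3 were above all double mutants at 49 of these genes, and at 42 of the 49 replicate 2 was below all double mutants. Over all genes tested, replicates 1 and 3 were above all double mutants at 4087 genes, and replicate 2 was below all double mutants at 418 of those. *Cpr66D* had 41.7, 39.5 and 45.6 CPM in double mutants and 149, 17.2 and 253 CPM in double heterozygotes (log2 fold change -1.73, adjusted p = 0.119, and -2.23 with an adjusted p of 5e-05 without replicate 2). Some cuticle genes did not depend on that library. *TwdlP* had 71.2, 70.4 and 74.2 CPM in double mutants, against 10.2, 12.1 and 10.7 CPM in double heterozygotes (log2 fold change 2.70, adjusted p = 3.6e-06), and *TwdlX* had 98, 97.1 and 107 CPM, against 235, 222 and 267 CPM (log2 fold change -1.26, adjusted p = 6.9e-05).

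Osiris genes, a clustered family active while cuticle is laid down, mostly fell with all libraries. Of 14 tested, 12 fell and none rose, with a median of -1.34. Double heterozygote replicate 2 was the lowest of its group at 13 of the 14. Without that library all 15 tested fell, a count that is descriptive only, as for the cuticle genes. *Osi19* had 250, 246 and 255 CPM in double mutants, against 992, 337 and 1028 CPM in double heterozygotes (log2 fold change -1.65, adjusted p = 0.0137). *Osi15* had 552, 567 and 587 CPM, against 1878, 1034 and 1861 CPM (log2 fold change -1.48, adjusted p = 0.00208). At 11 of the 14 genes, replicate 2 lay between the double mutants and the other double heterozygotes. With the double mutant libraries summed, none passed. Chitin genes had 6 of 26 higher and 8 lower, or 8 higher and 14 lower without replicate 2. The chitinase gene *Cht9* rose by 2.01 log2 units, and the epidermal chitin synthase *kkv* had 169, 164 and 168 CPM in double mutants, against 397, 198 and 359 CPM in double heterozygotes (log2 fold change -0.93, adjusted p = 0.0184).

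**Figure D4:**
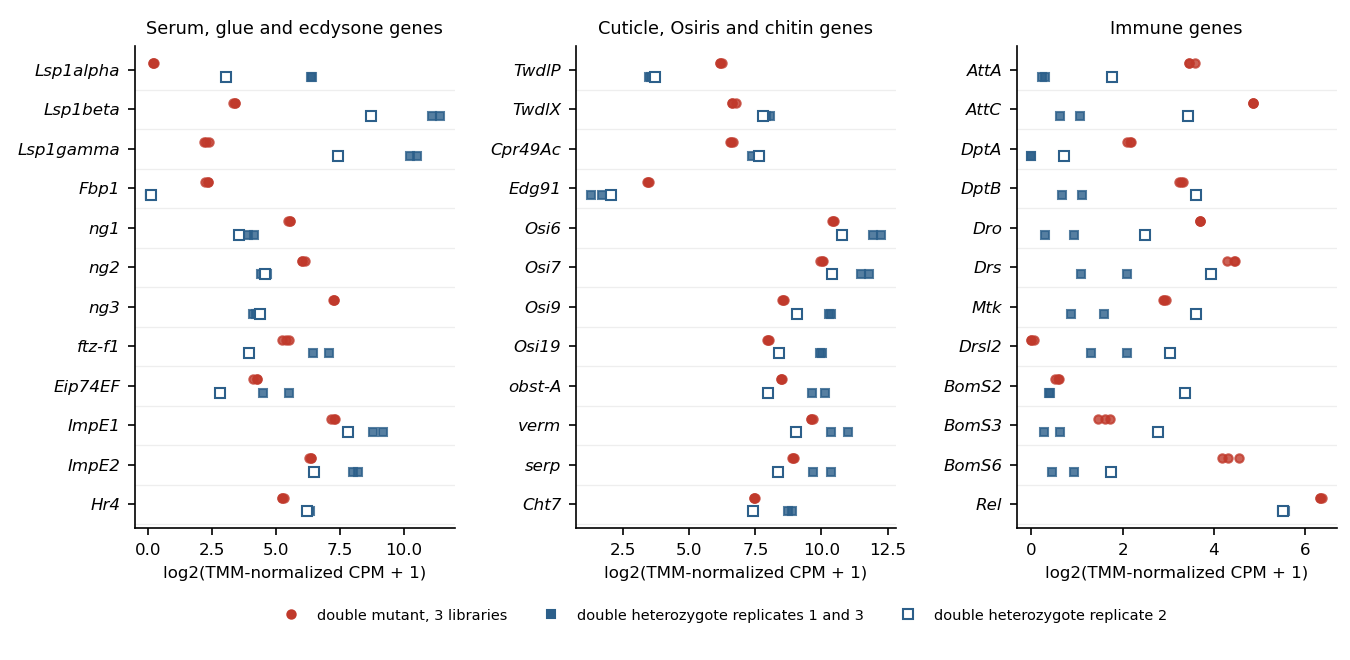
Rows are single genes and the horizontal axes give log2(TMM-normalized CPM + 1), with red circles for the 3 double mutant libraries, filled blue squares for double heterozygote replicates 1 and 3 and open squares for replicate 2. Replicate 2 lies between the groups at the *Lsp1* and most Osiris genes, beyond the double mutants at *verm* and *serp*, and above the other double heterozygotes at every peptide gene of the right panel, *Drsl2* included.

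Antimicrobial peptide genes were higher in double mutants, and the size of the difference again rested on double heterozygote replicate 2. Of 14 tested, 10 rose and 1 fell, and without that library 13 of 15 rose and 1 fell. Replicate 2 was the highest double heterozygote at all 14. *AttA*, an attacin, had 11, 9.95 and 9.89 CPM in double mutants, against 0.173, 2.42 and 0.226 CPM in double heterozygotes (log2 fold change 3.39, adjusted p = 0.00703, and 5.68 without replicate 2). *DptA*, a diptericin, had 87, 95 and 99 counts in double mutants, against 0, 16 and 0 counts in double heterozygotes (log2 fold change 3.90 with all libraries, adjusted p = 0.00526). Without replicate 2, against a floor of 3 counts over replicates 1 and 3 together, it was at least 59.3-fold higher in double mutants. *Drs*, drosomycin, had 21, 18.6 and 20.7 CPM in double mutants and 3.25, 14.4 and 1.13 CPM in double heterozygotes, and passed only without replicate 2 (adjusted p = 0.101 with it, 4.3e-05 without). *Drsl2*, a drosomycin-like gene, went the other way with 0, 1 and 0 counts in double mutants, against 34, 183 and 72 counts in double heterozygotes, a summed ratio of 0.00333 (95% exact interval 8.39e-05 to 0.0187), most of whose control counts came from replicate 2. After summing the double mutant libraries, 1 antimicrobial peptide gene passed as higher.

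Regulators of these peptides were mostly higher as well. *Rel*, the NF-kappaB factor of the Imd pathway, had 78.9, 79.6 and 81.7 CPM in double mutants, against 46.2, 44.7 and 44 CPM in double heterozygotes (log2 fold change 0.83 ± 0.043 standard error, adjusted p = 2.8e-05). *PGRP-LB* and *pirk*, inhibitors of that pathway, rose by 0.72 and 0.95 log2 units, and *PGRP-SC2*, which degrades peptidoglycan, had 4.31, 4.13 and 4.41 CPM in double mutants, against 1.86, 1.82 and 2.53 CPM in double heterozygotes (log2 fold change 1.05, adjusted p = 0.00149). *PGRP-LA* had 22.9, 22.5 and 21.4 CPM in double mutants, against 56.8, 24.1 and 59.8 CPM in double heterozygotes (log2 fold change -1.07, adjusted p = 0.0318). There, replicate 2 came close to the double mutants. In the list of recognition proteins and pathway members, 7 of 12 rose and 1 fell. Among 8 tested Bomanin and Daisho peptides, which act downstream of Toll, *BomS6* was the only one to pass, with 22.6, 17.1 and 18.8 CPM in double mutants, against 0.91, 2.34 and 0.361 CPM in double heterozygotes (log2 fold change 3.98, adjusted p = 0.000683, and 4.94 without replicate 2). Without replicate 2, 5 of the 8 passed as higher. *BomS2* had 0.488, 0.516 and 0.427 CPM in double mutants and 0.303, 9.32 and 0.316 CPM in double heterozygotes, and its sign turned with replicate 2 (log2 fold change -2.82, adjusted p = 0.133, and 0.63 with an adjusted p of 0.195 without it).

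**Figure D5:**
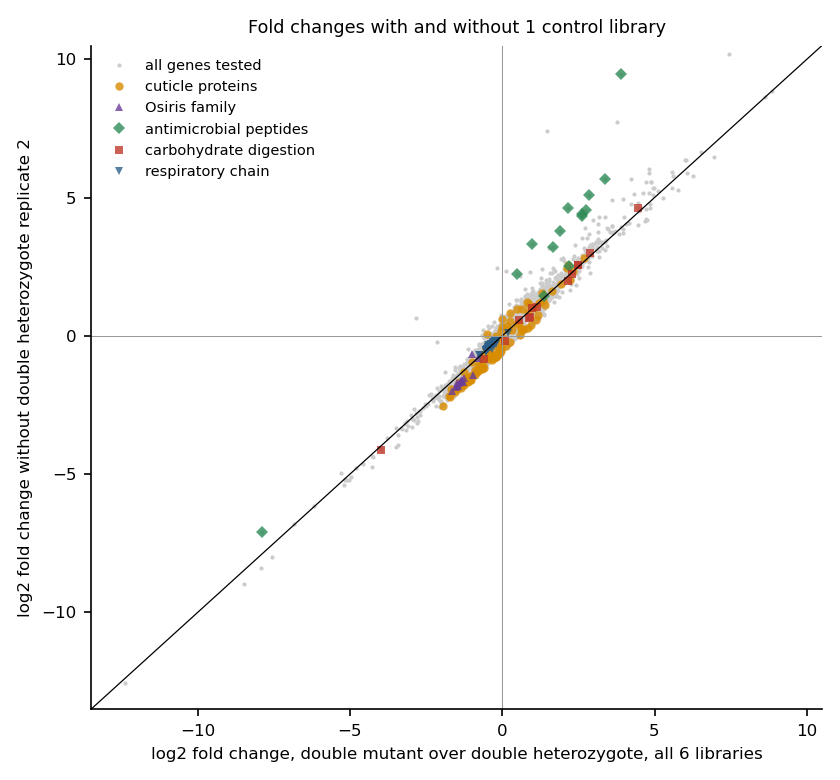
Each point is 1 gene, with its log2 fold change from all 6 libraries on the horizontal axis and that without double heterozygote replicate 2 on the vertical axis, and coloured symbols mark 5 gene lists. The diagonal marks equal values. Most genes lie close to it, all 14 antimicrobial peptide genes lie above it, cuticle and Osiris genes mostly lie slightly below it, and the point of *DptA* at 9.46 on the vertical axis is a fitted value against libraries with no counts.

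Calls that changed with this library were listed at both ends. Under the same limit of 10 CPM, the 8 genes of largest fold change called only with it, *CG42329*, *ich*, *CG32793*, *CG12009*, *sNPF*, *kel*, *CG12643* and *mas*, had log2 fold changes between -1.17 and 1.37 and passed without it too, at sizes that did not exceed 1. Genes called only without it included cuticle genes with wide control ranges. *Cpr23B* had 12.1, 9.62 and 10.7 CPM in double mutants and 40.9, 8.52 and 59.2 CPM in double heterozygotes. *CG14752* had 48.6, 47.8 and 49.8 CPM in double mutants and 171, 22 and 325 CPM in double heterozygotes, and *CG12164* had 40.6, 39.6 and 39.4 CPM, against 124, 13.1 and 238 CPM. At these 3 genes the double mutants lay between replicate 2 and the other double heterozygotes. The ribosomal precursor RNA pre-rRNA:CR45856 owed its level in the controls to replicate 1, with 0.9, 0.516 and 0.783 CPM in double mutants and 20.9, 0.832 and 1.9 CPM in double heterozygotes.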

How the data were processed

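RNA was extracted from pools of whole larvae with a column kit and sequenced, and 6 of 12 libraries were used. Per the labels, the submitters' processing notes name bcl2fastq 2.20.0.422, cutadapt 1.12, HISAT2 2.1.0 and HTSeq 0.9.0. The deposited files hold raw counts per gene, made by the authors, for 17185 gene IDs and 5 counter summary lines, which were removed. The study's methods describe another route, with Salmon on BDGP6.28 transcripts and DESeq2, while the counter summary lines in the files belong to a read counter. Which build and strand setting gave the deposited counts is therefore not settled by these sources. Symbols, positions and overlaps came from the BDGP6.54 annotation, which named 17059 IDs.

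Counts were analysed with edgeR 4.0.16 in R 4.3.3. Genes were kept by filterByExpr (minimum count 10), scaled by TMM and tested with the quasi-likelihood F test, with Benjamini-Hochberg adjustment over all genes kept. CPM were computed from the counts and the TMM-scaled totals of the 6 libraries. The standard error is the fitted log2 fold change over the root of its F value. A gene was called past a log2 fold change of 1 in size with an adjusted p under 0.05, and members of gene lists passed at an adjusted p under 0.05 alone. Intervals of ratios of summed counts are exact 95% intervals and cover counting error only. At between 24275819 and 26605495 counts a library, precision was set by the spread between libraries. No 2 libraries agreed within sampling noise, with chi-square values per degree of freedom between 2.7 and 136 in pairs of 1 group.

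The 42 pathway lists and 14 marker lists, as well as the comparison itself, were chosen with earlier results of these data known. The set of named genes holds the mutated genes and the 12 largest changes each way. From each list it holds the 4 members of smallest adjusted p, or all tested members in 6 lists. Genes whose call changed with double heterozygote replicate 2, and neighbours of the mutated genes, complete it. Only part of this set is printed above, so a member that is not printed may also have passed. Further list members, such as *tobi*, *Alp9*, *AttA*, *Osi19*, *kkv*, *PGRP-LA* and *Eip74EF*, were named after their values were seen. The script was tested on simulated counts. The alternatives were no filter, a filter of 10 counts in every library, RLE factors, DESeq2 1.42.0, limma 3.58.1 voom with group weights, all 12 libraries in 1 fit, a replicate block, the double mutant libraries summed, and each library left out in turn. The 15 list entries with no match in the annotation were left out.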

Additional observations from a re-analysis of the deposited data

How the results depend on the processing

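The 731 genes called higher and 380 called lower became 784 and 439 with no filter, 576 and 316 with 10 counts required in every library, 745 and 370 with RLE factors, 747 and 412 in DESeq2, 742 and 358 in limma voom with group weights, and 733 and 467 with all 12 libraries in 1 fit. With the double mutant libraries summed into 1, 527 and 176 were called, and with no fold limit 2690 and 2757. Leaving out 1 library at a time gave 707 to 850 higher and 317 to 632 lower calls, and the highest counts of both came without double heterozygote replicate 2. Under the replicate block 721 genes were called higher and 354 lower. The replicate numbers did not pair the samples, since same-numbered libraries of the groups had correlations of 0.027, -0.00214 and 0.0259 in their deviations, so the block stands only as an alternative.

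No call of a named gene turned in direction. The fitted sign turned at 10 named genes, each at least once when a library was left out and none of them past the threshold in either fit, among them *BomS2* (-2.82 with all libraries, 0.63 without double heterozygote replicate 2) and *Cyp18a1* (-0.04 with all libraries, 0.69 without double heterozygote replicate 3). Of 326 named genes, 205 kept their side of the threshold and 121 lost it with the double mutant libraries summed, the setting that cost most, and among the other settings with all libraries between 2 and 14 lost it. Without double heterozygote replicate 2, 22 named genes gained it and 3 lost it. The replicate block left 17 of 89 ribosomal protein genes lower, against 32 without it.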
